A study of Mus musculus with 3 samples.

Results

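The cells described here are macrophages of the mouse aorta that carried transcripts of Vcam1 within the Lyve1-type resident compartment. Vcam1 encodes vascular cell adhesion molecule 1, a surface protein of the immunoglobulin family that binds the integrin VLA-4 on leukocytes. The gene is encoded at chr3:116109949-116129688 (GRCm38, minus strand). The cells were chosen by counts, not by clustering, with sums of unique molecular identifiers (UMIs) expressed per 10000 UMIs of the cell. A cell needed 20 or more for C1qa, C1qb and C1qc together and 15 or more for Lyve1, Folr2, F13a1 and Cbr2 together. It had to stay under 8 for Clec10a, Cd209d, Cd209f and Cd209g and under 40 for S100a4 and S100a6, to hold no Cd79a or Cd3e UMI, and to hold at least 1 Vcam1 UMI. Of the 5348 cells kept from 8471 barcodes, 196 met every condition and are called Vcam1+ cells. The 917 cells that met every condition except the last are called Vcam1-zero cells, and the 1113 cells of both kinds are called the gate.

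The cells came from a CITE-seq experiment, in which transcripts and DNA-tagged antibodies bound to the surface are counted in the same cell. Leukocytes positive for CD45 were sorted from the aortas of 5 Jak2WT mice and 5 Jak2V617F Myel mice, after circulating leukocytes had been labeled through a vein and left out. Jak2V617F Myel mice carried 1 Jak2V617F Flex allele and LysM-Cre, so that the activating mutation of myeloproliferative neoplasms is switched on in macrophages, monocytes and neutrophils and not in macrophages alone. Of these mice, 2 had an aneurysm visible at dissection (mice 7 and 9) and 3 had none and are called dilation here (mice 6, 8 and 10), while mice 1 to 5 were Jak2WT. All were on a C57BL/6 background and untreated, with littermate controls matched for age and sex. The paper used both male and female mice. The age and sex of each of these mice are not given in the sources used here. All 10 aortas were pooled after hashtag labeling into 1 run, so the 3 libraries (transcripts, antibodies and hashtags) share all barcodes and the mouse is the replicate. The CD45 antibody used in the sort carried a different fluorochrome in each genotype, and about equal numbers of cells were sorted from the genotypes, so that numbers of cells are not compared, only shares within a mouse.

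Resident macrophages of the arterial wall that express LYVE-1 sit mainly in the adventitia and are maintained largely without input from blood monocytes. Vcam1 is best known from activated endothelium, and it is also part of the program of macrophages that take up senescent red cells in spleen and liver, where SPI-C directs it together with genes of iron export. Immediate-early genes such as Egr1, Fos and Jun are switched on within minutes of a stimulus, without new protein synthesis, and tissue digestion is one such stimulus.

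The working name of these cells paired Vcam1 with the immediate-early genes Ccn1 and Egr3 and the kinase gene Pim3, because the 4 genes led 1 cluster in an earlier analysis of the same counts. The macrophage identity held. Csf1r, the receptor of the main macrophage growth factor, and Mrc1, the mannose receptor of resident macrophages, were each detected in 100% of Vcam1+ cells. Of B cells, 8.03% held a Csf1r and 15.9% a Mrc1 UMI, a background level for transcripts those cells should lack. The scavenger receptor gene Cd163 was detected in 84.2% of Vcam1+ cells and Timd4, a receptor for apoptotic cells, in 50.5%.

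The other genes of that name did not separate the cells from their neighbors. In UMIs summed per mouse and scaled to a total of 1000000 (CPM), Egr3, a zinc-finger transcription factor, stood at 177 ± 58.6 CPM (SD, n = 8 mice) in Vcam1+ and 194 ± 72.7 CPM in Vcam1-zero cells, and was higher in Vcam1+ cells in 2 of 8 mice. Pim3 stood at 108 ± 29.0 and 127 ± 30.3 CPM and was higher in 1 of 8 mice. Ccn1, a secreted matrix protein, stood at 223 ± 200 and 161 ± 82.2 CPM and was higher in 4 of 8 mice, with 28.3% of its 446 UMIs in 3 cells. These 8 mice are those with at least 10 cells of each kind; mice 4 and 5 had 4 and 7 Vcam1+ cells. Vcam1 itself was used to choose the cells, so the transcripts of the 2 kinds of cells are compared as a description, without a test.

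Over the whole list of immediate-early genes, fixed with earlier results of these counts known, the sums were 41814 ± 4936 CPM in Vcam1+ and 42082 ± 4476 CPM in Vcam1-zero cells. None of the 33 genes was higher in at least 7 of the 8 mice and 4 were lower, beside 2.92% and 4.68% of the 9109 genes with a mean of at least 5 CPM. The lower ones were the orphan nuclear receptors Nr4a1 (570 ± 142 against 739 ± 134 CPM, lower in 8 of 8 mice) and Nr4a2, the transcription factor Klf4 (679 ± 267 against 891 ± 208.6 CPM, lower in 7 of 8) and Pim3. Egr1 (3183 against 3205 CPM), Fos (3755 against 3990 CPM), Jun (5186 against 4913 CPM) and the mRNA decay factor Zfp36 (3526 against 3417 CPM) lay within their spread. On average over mice with at least 10 cells, the list summed to 46116 CPM in CD209-high cells, 318 Lyve1-type macrophages whose Clec10a and Cd209 sum was 8 or more and whose S100 sum was under 40. It summed to 23338 CPM in S100-high cells, 205 Lyve1-type macrophages whose S100a4 and S100a6 sum was 40 or more. The Vcam1+ cells are therefore called by their rule below.

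**Figure D1:**
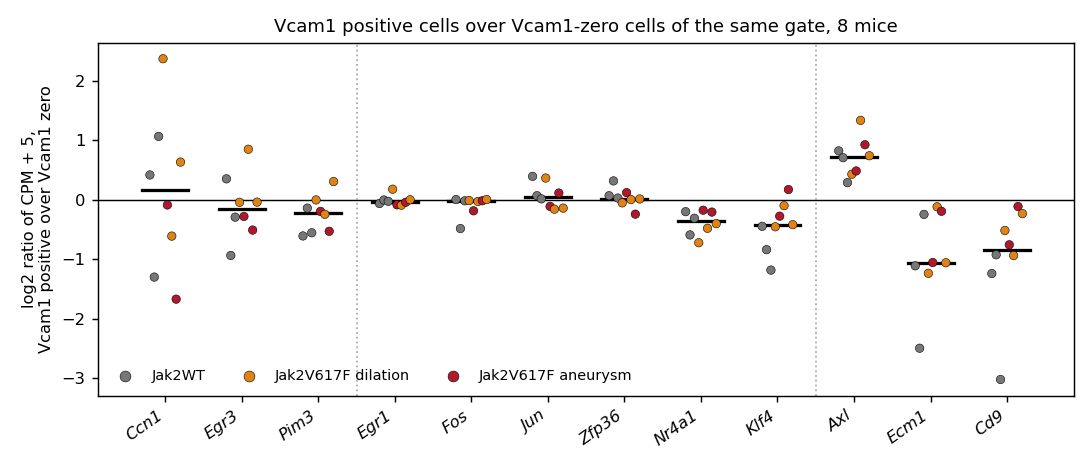
Log2 ratio of CPM + 5 in Vcam1+ over Vcam1-zero cells, 1 point per mouse (8 mice, colored by group) and the median as a bar, for the 3 other genes of the working name (left), further immediate-early genes (middle) and 3 genes that went the same way in every mouse (right). Egr1, Fos, Jun and Zfp36 sit near 0, while Axl lies above 0 and Ecm1 below 0 in all 8 mice.

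Vcam1 was spread unevenly over the cells. Of the 196 Vcam1+ cells, 48 held 1 Vcam1 UMI, 74 held 2 to 4 and 74 held 5 or more, with a median of 3 and a highest count of 50. The median cell had 11132 UMIs in all, against 9940 in Vcam1-zero cells, so that the cells with 1 UMI lie next to cells in which the transcript could have been missed. Thinned to 3000 UMIs, a Vcam1+ cell kept a Vcam1 UMI in 63.5% of cases. In cells that should lack the transcript, 8 of 598 B cells (1.34%, 95% Wilson interval 0.679% to 2.62%, median 5726 UMIs) and 11 of 737 T cells (1.49%, interval 0.835% to 2.65%, median 7540 UMIs) held a Vcam1 UMI. These intervals cover counting error only. VCAM1 protein was not analysed here.

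Near the Clec10a and Cd209 limit of the rule, cells on both sides had similar levels of Lyve1 and Mrc1 but not of Retnla. The 25 Vcam1+ cells with a Clec10a and Cd209 sum of 6 to under 8 had Lyve1 at 1236 CPM and Mrc1 at 2186 CPM, all cells of a stratum pooled, and the 10 Vcam1-bearing cells just above that limit, with a sum of 8 to under 10, had 1118 and 2122 CPM. Retnla stood at 847 CPM in the former and 79.2 CPM in the latter, and Nr4a1 at 496 and 1277 CPM. Near the S100 limit Lyve1 and Mrc1 lay further apart than near the Clec10a and Cd209 limit. The 8 Vcam1+ cells with a sum of 30 to under 40 had Lyve1 at 1230.1 CPM, Mrc1 at 1148 CPM and Retnla at 5827 CPM, and the 6 Vcam1-bearing cells with a sum of 40 to under 50 had 1974, 1585 and 18642 CPM. The 18 Vcam1+ cells near the Lyve1-type limit, with a sum of 15 to under 20, had Mrc1 at 1353 CPM and the monocyte chemokine receptor gene Ccr2 at 264 CPM, against 2213 and 43.5 CPM in the other 178. Cells with 5 or more Vcam1 UMIs had Retnla, a secreted protein of alternatively activated macrophages, at 188 CPM, against 1128 CPM in cells with 1 UMI and 1046 CPM in Vcam1-zero cells. Of all Retnla UMIs in Vcam1+ cells, 75.5% came from 3 cells.

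**Figure D2:**
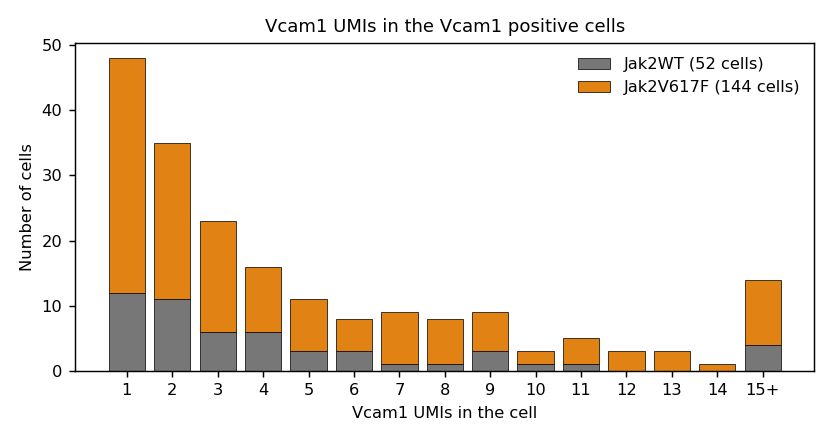
Number of cells (vertical axis) by Vcam1 UMIs in the cell (horizontal axis, 15 or more pooled) for the 52 Jak2WT and 144 Jak2V617F Vcam1+ cells. The counts fall from 48 cells with 1 UMI and a tail reaches 50 UMIs.

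Vcam1 was also detected in other macrophages, at different rates. Lyve1-type macrophages with a Clec10a and Cd209 sum of 8 or more (CD209-high cells) held a Vcam1 UMI in 67 of 318 cells (21.1%), S100-high cells in 11 of 205 (5.37%, 95% Wilson interval 3.02% to 9.35%) and macrophages with C1q transcripts but a Lyve1-type sum under 15 in 89 of 892 (9.98%). S100-high cells were deeper than the gate, with a median of 13723 against 10127 UMIs. After thinning to 3000 UMIs, the share per mouse was 10.6 ± 3.93% in the gate and 2.48 ± 4.34% in S100-high cells (SD, n = 10), higher in the gate in 9 of 10 mice. The S100-high mean rested largely on mouse 3, at 14.3% from 4 S100-high cells, while every other mouse stood at 3.52% or less. The thinned share was 15.9 ± 8.02% in CD209-high cells, higher than in the gate in 7 of 10 mice. Both comparisons were chosen after the values were seen. Vcam1 and the sums that set these cells apart all belong to the rule, which came from the same counts. The shares are therefore given as a description, without a p-value. Vcam1 transcripts ran across the Lyve1-type compartment and were low on its S100-high side.

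The first question of the design is whether the mutation changed how many of these macrophages carried Vcam1. In Jak2WT mice 1 to 5, 16.9%, 18.7%, 12%, 9.52% and 6.36% of the gate held a Vcam1 UMI. In mice with dilation the shares were 20.7%, 24.8% and 19.0% (mice 6, 8 and 10), and in mice with aneurysm 19.8% and 20.8% (mice 7 and 9). All 5 Jak2V617F mice lay above all 5 Jak2WT mice, and the means were 21.0 ± 2.21% and 12.7 ± 5.09% (SD, n = 5 each). The gate held 42 to 205 cells per mouse, and the 95% Wilson interval ran from 3.77% to 22.1% in mouse 4, the smallest, and from 14.2% to 24.9% in mouse 10, the largest. The difference of 8.34 points had an exact two-sided permutation p of 0.00794, the smallest that 5 mice against 5 allow. Adjusted over the 11 tests of shares and levels this was 0.0873 (Benjamini-Hochberg over exact permutation tests), which is above 0.05.

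Depth differed between mice. The median cell of the gate had 8049 to 10747 UMIs in Jak2WT and 10155 to 12146 UMIs in Jak2V617F mice, ranges that overlapped (exact permutation p = 0.0794, adjusted over 4 tests 0.106). With every cell thinned to 3000 UMIs the shares were 9.87%, 13.3%, 8.61%, 3.15% and 5.55% in Jak2WT mice. They were 13.3%, 15.6% and 14.0% with dilation and 12.4% and 10.2% with aneurysm. The genotypes now overlapped, through mouse 2 among Jak2WT mice and mice 7 and 9, with means of 8.09 ± 3.91% and 13.1 ± 1.97% and a difference of 5.00 points (exact permutation p = 0.0317, adjusted 0.116). As a share of all Lyve1-type cells, CD209-high and S100-high ones included, Vcam1+ cells made up 9.39 ± 3.74% and 13.4 ± 1.22% (exact permutation p = 0.0556, adjusted 0.153). The gate itself made up 74.1 ± 8.16% of Lyve1-type cells in Jak2WT and 63.9 ± 3.43% in Jak2V617F mice (exact permutation p = 0.0317, adjusted over the 4 added tests 0.106).

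The Vcam1 level of the whole gate, Vcam1-zero cells included, gave values on the same side. It was 57.4, 59.4, 87.8, 16.1 and 63.0 CPM in Jak2WT mice, 82.2, 133 and 123 CPM with dilation and 89.4 and 73.4 CPM with aneurysm. The groups overlapped through mouse 3 among Jak2WT mice, and the means were 56.8 ± 25.8 and 100.2 ± 26.2 CPM. The difference was 0.97 on the log2 scale (exact permutation p = 0.0238, adjusted 0.116). Without mouse 4 it was 0.56, with a p of 0.0476 in the exact permutation test. Without cells holding 2 or more vessel-wall UMIs (endothelial, smooth muscle and fibroblast markers) it was 1.72 (exact permutation p = 0.0159).

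By severity no difference in the shares was detected. Mice with aneurysm lay 4.31 points above the 8 others at full depth (exact permutation p = 0.356) and 0.89 points above them after thinning (exact permutation p = 0.844). Aneurysm and dilation differed by -1.20 points at full depth (exact permutation p = 0.900) and by -2.98 points after thinning (exact permutation p = 0.1), where 2 mice against 3 cannot reach a p below 0.1. The Vcam1 level of the gate differed by -0.45 on the log2 scale (exact permutation p = 0.300). In CD209-high cells, the thinned share with Vcam1 was 17.3 ± 10.7% in Jak2WT and 14.5 ± 5.03% in Jak2V617F mice, a difference of -2.86 points that did not pass (exact permutation p = 0.627). The difference between the 2 genotype differences was 7.86 points (exact permutation p = 0.0794, adjusted over 4 tests added after the values were seen 0.106), so the genotype difference was not shown to be particular to the gate.

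**Figure D3:**
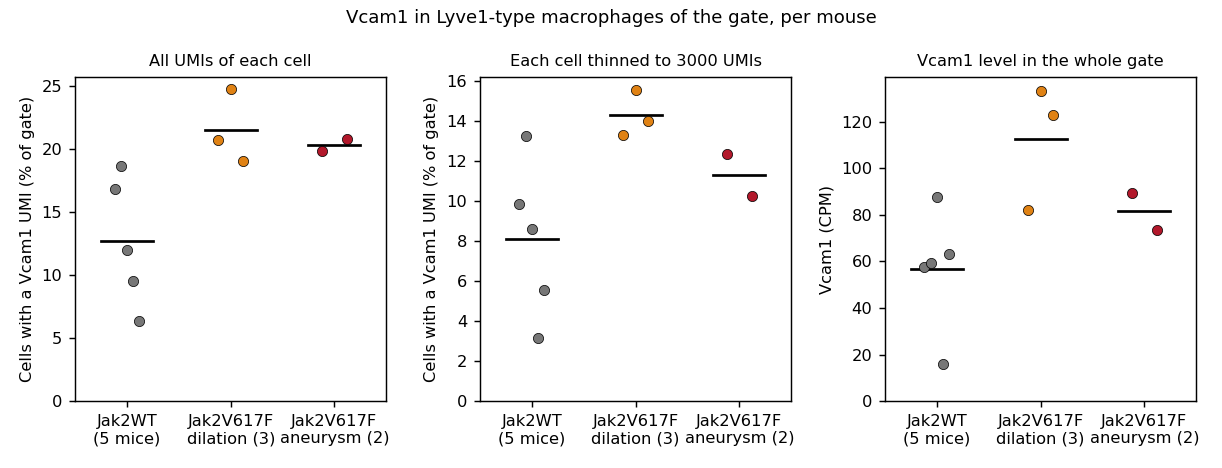
Share of gate cells with a Vcam1 UMI at full depth (left) and after thinning each cell to 3000 UMIs (middle), and Vcam1 CPM in the whole gate (right), 1 point per mouse with the group mean as a bar, for 5 Jak2WT, 3 dilation and 2 aneurysm mice. The genotypes do not overlap at full depth and overlap in the other panels.

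Beyond Vcam1, few transcripts went the same way in every mouse between Vcam1+ and Vcam1-zero cells. Of the 2847 genes with a mean of at least 50 CPM, 52 (1.83%) did so in all 8 mice, 18 higher and 34 lower. Among the highest ratios were Suz12, a subunit of the Polycomb repressive complex, at 61.4 ± 6.24 against 43.5 ± 5.68 CPM (SD, n = 8), the zinc-finger gene Zfp871, the small GTPase gene Rab20 at 82.9 ± 36.4 against 59.8 ± 20.2 CPM, and Aif1, the macrophage actin-binding protein IBA1, at 397 ± 147 against 293 ± 80.5 CPM. They were followed by Rbm15 and Nono, which code for RNA-binding proteins, and Hdac1, a histone deacetylase. Clec10a, a gene of the rule, was also among them. Apart from Vcam1, the median log2 ratios of these genes reached at most 0.47.

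The genes with the lowest ratios were Ecm1, an extracellular matrix protein, at 78.0 ± 45.0 against 137 ± 35.6 CPM, Tppp3, a tubulin-binding protein, at 38.1 ± 28.8 against 80.6 ± 40.2 CPM, and the tetraspanin gene Cd9 at 39.5 ± 20.1 against 68.6 ± 16.03 CPM. They were followed by Emp1, Lsp1, Rab31, Gda, Crip1 and S100a10, and by S100a4, which is a gene of the rule. All of these stood higher in S100-high cells than in either kind of gate cell, with Ecm1 at 481 CPM, Tppp3 at 369 CPM and Cd9 at 188 CPM. The S100a4 and S100a6 sum moved with Vcam1 inside the gate, with a median of 1.06 per 10000 UMIs in Vcam1+ and 3.78 in Vcam1-zero cells. Among cells with a sum under 5 (149 Vcam1+ and 498 Vcam1-zero cells), the median log2 ratio of Ecm1 was -0.08, in place of -1.06 in the whole gate. There Ecm1 was lower in 5 of 8 mice and Cd9, at -0.59, in 5 of 8, while Crip1, at -0.41, was lower in 7 of 8 and Lsp1, at -0.998, in 5 of 8. Rbm15 was higher in 5 of 8, and Nono and Zfp871 were still higher in 8 of 8 and Nr4a1 lower in 8 of 8. Of the working name, Egr3 (177 against 229 CPM) and Pim3 (116 against 177 CPM) were lower there in 7 of 8 mice. Ccn1 (227 against 199 CPM) was higher in 5 of 8.

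Of 14 expressed genes of apoptotic cell uptake, 3 were higher and 1 was lower in at least 7 of 8 mice, beside 2.92% and 4.68% of all genes, and the list summed to 2447 ± 219.6 and 2334 ± 176 CPM. Axl, a receptor tyrosine kinase that binds apoptotic cells through GAS6, stood at 48.6 ± 24.3 against 26.7 ± 13.2 CPM and was higher in 8 of 8 mice, with UMIs in 31.6% of Vcam1+ cells. It was 89.4, 32.7 and 17.8 CPM in Jak2WT mice 1 to 3, against 48.4, 18.1 and 13.7 CPM in their Vcam1-zero cells. In Jak2V617F mice 6 to 10 it was 28.6, 63.3, 58.7, 65.9 and 32.5 CPM, against 19.97, 43.8, 20.2, 32.3 and 17.4 CPM. The mice differed more from each other than the 2 kinds of cells did within a mouse. Stab1, the scavenger receptor stabilin 1 (616 ± 185 against 523 ± 125 CPM), and Itgb5, the integrin that binds MFG-E8 (92.5 ± 19.5 against 74.0 ± 12.1 CPM), were higher in 7 of 8 mice, and Cd36 was lower in 7 of 8. Among cells with an S100a4 and S100a6 sum under 5, Axl was higher in 7 of 8 mice. Its median log2 ratio there was 0.42, in place of 0.72 in the whole gate.

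The counts of the next lists stand beside the same 2.92% of all genes higher and 4.68% lower. Among 17 heme and iron genes, Spic, the transcription factor of red pulp macrophages, was higher in 7 of 8 mice at 38.1 ± 16.2 against 18.8 ± 4.64 CPM, and Blvra, biliverdin reductase, was lower in 7 of 8. Slc40a1, the iron exporter ferroportin, stood at 48.9 ± 40.1 against 28.2 ± 16.3 CPM but was higher in only 5 of 8 mice, and 56.0% of its 141 UMIs came from 3 cells. Hmox1, heme oxygenase 1, stood at 894 ± 201 against 820 ± 170 CPM and was higher in 6 of 8. The list summed to 20655 ± 2560 and 19311 ± 1350.3 CPM.

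Of the 24 JAK-STAT genes expressed, Jak1 and Stat5b were lower in 7 of 8 mice, and the list had summed levels of 2428 ± 396 and 2396 ± 232 CPM. Of 17 interferon-stimulated genes, Oasl2 was higher in 7 of 8 mice (63.3 ± 17.3 against 42.8 ± 20.2 CPM) and none was lower. Mmp9, a gelatinase, stood at 53.4 ± 25.0 against 24.2 ± 12.8 CPM and Ctsb, the lysosomal protease cathepsin B, at 2728 ± 266 against 2323 ± 204 CPM, both higher in 7 of 8 mice. Of the remaining resident and pan macrophage markers, Mrc1 was higher in 8 of 8 mice (2255 ± 257 against 2010 ± 257 CPM) and Fcgr1, a receptor for immunoglobulin G, in 7 of 8. The amino acid transporter gene Slc3a2 was higher in 8 of 8 mice and the chaperone partner Bag3 in 7 of 8, while Ccl6 was lower in 7 of 8. None of 15 genes of NF-kappaB feedback, 10 of MHC class II and 9 expressed monocyte and inflammatory macrophage genes reached 7 of 8 in either direction.

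Markers of other lineages were low in most Vcam1+ cells and high in a few. Of the vessel wall, the endothelial markers Tie1, Cdh5 and Cldn5 and the smooth muscle marker Cnn1 were at 0 UMIs, and the 2 lists held 29 and 36 UMIs in all, the most abundant being Egfl7 and Tpm2. Vessel-wall UMIs were counted over these 2 lists and the fibroblast list together. Cells with 2 or more of them made up 21.4% of Vcam1+ and 14.1% of Vcam1-zero cells. Without these cells the genotype difference in share was 9.93 points (exact permutation p = 0.00794). Fibroblast markers held 1384 UMIs, of which 90.9% lay in 2 cells, of mice 4 and 10, led by Dcn. The list summed to 5951 CPM in mouse 4 and 1553 CPM in mouse 10 and to between 22.5 and 81.7 CPM in the other mice. Neutrophil markers held 1218 UMIs, 79.4% of them in 2 cells, and summed to 1272 and 1282.5 CPM in mice 7 and 9 and to at most 65.6 CPM elsewhere. Erythroid markers held 1676 UMIs, 89.6% in 2 cells, and summed to 6758 and 5518 CPM in mice 1 and 5 and to at most 89.9 CPM elsewhere, and 2 of the 4 genes were lower than in Vcam1-zero cells in 7 of 8 mice. Their part in the other results was tested only by leaving such cells out. In all, 9 of the 196 cells (4.59%) and 21 of the 917 Vcam1-zero cells (2.29%) held 10 or more UMIs of these lists. B cell markers other than Cd79a were spread over most cells, with 491 UMIs of Ighm in 161 cells and at most 10 in a cell. T cell markers held 30 UMIs with Cd3g at 0, platelet markers 10, dendritic cell markers 83, led by Cd209a, while cycling markers were led by Stmn1 with 217.

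The surface was counted independently of the gate, with 75 antibodies of which 73 had counts. The Vcam1+ cells carried the resident markers CD163 at 611 ± 179 UMIs per cell (SD, n = 8 mice) and TIM4 at 29.9 ± 10.5, and CD169 at 7.38 ± 1.23. The rat IgG1 and IgG2b control antibodies lay at 0.442 and 0.162 UMIs per cell. In Vcam1-zero cells of the same mice CD163 stood at 646 ± 149, TIM4 at 33.2 ± 3.80 and CD169 at 7.02 ± 0.915 UMIs per cell. None of 72 antibodies tested (0%) differed between the 2 kinds of cells at an adjusted p under 0.05 by edgeR's quasi-likelihood test with the mouse as a block, and 5 had an unadjusted p under 0.05, while DESeq2 called 2, CD44 and ITGB7. The nearest was ITGB7, an integrin subunit of lymphocytes, at 0.280 ± 0.148 against 1.76 ± 1.33 UMIs per cell (edgeR adjusted p = 0.0572), named after its values were seen.

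CD44, the hyaluronan receptor, showed the same direction in every mouse. It was 20.9, 13.1 and 10.7 UMIs per cell in Jak2WT mice 1 to 3 and 13.9, 34.96, 15.5, 31.2 and 20.2 in Jak2V617F mice 6 to 10. In Vcam1-zero cells it was 23.2, 28.7 and 11.3, and 24.8, 36.4, 21.5, 37.8 and 23.5. It was lower in Vcam1+ cells in 8 of 8 mice, by 0.39 ± 0.10 on the log2 scale (SE), with an edgeR adjusted p of 0.0572. CD9 protein, the product of a transcript that was lower in 8 of 8 mice, was lower in 7 of 8 mice at 12.5 ± 2.03 against 14.1 ± 2.47 UMIs per cell, a log2 difference of -0.17 ± 0.14 (SE, edgeR adjusted p = 0.754).

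Against the other Lyve1-type macrophages the surface did differ. In comparisons added after the values were seen, 7 of 69 antibodies (10.1%) passed against CD209-high cells in 8 mice and 13 of 66 (19.7%) against S100-high cells in 7 mice, by edgeR's quasi-likelihood test with the mouse as a block. MGL1, the product of the rule gene Clec10a and thus no independent finding, stood at 3.08 ± 0.855 UMIs per cell in Vcam1+ cells and 10.9 ± 3.80 in CD209-high cells. CX3CR1, the fractalkine receptor, stood at 7.08 ± 2.29 in Vcam1+, 4.01 ± 1.01 in CD209-high and 3.51 ± 1.27 in S100-high cells. It was higher in Vcam1+ cells by 1.00 ± 0.19 (log2, SE, edgeR adjusted p = 0.00626) and 1.06 ± 0.14 (edgeR adjusted p = 4.13e-04). In Vcam1-zero cells of the same 8 mice CX3CR1 stood at 5.93 ± 1.15. The log2 difference of Vcam1+ from Vcam1-zero cells was 0.22 ± 0.12 (SE, edgeR adjusted p = 0.592). A high CX3CR1 level was therefore not shown to be particular to Vcam1+ cells within the gate. CD163 was lower than in CD209-high cells by -0.42 ± 0.08 on the log2 scale (edgeR adjusted p = 0.00626) and TIM4 by -0.77 ± 0.17 (edgeR adjusted p = 0.0107).

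Of the antibodies called against S100-high cells, CD44 and CD9 had the largest log2 differences. CD44 stood at 72.6 ± 28.3 UMIs per cell there and was lower in Vcam1+ cells by -1.69 ± 0.19 on the log2 scale (edgeR adjusted p = 2.73e-04). CD9 stood at 39.2 ± 26.6 and was lower by -1.31 ± 0.18 (edgeR adjusted p = 4.21e-04), while CD64, the high-affinity receptor for immunoglobulin G, was higher by 0.87 ± 0.13 (edgeR adjusted p = 8.56e-04). CD64 stood at 5.50 ± 1.48 UMIs per cell in Vcam1+ and 4.95 ± 1.08 in Vcam1-zero cells (edgeR adjusted p = 0.754), so it did not set Vcam1+ cells apart within the gate.

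**Figure D4:**
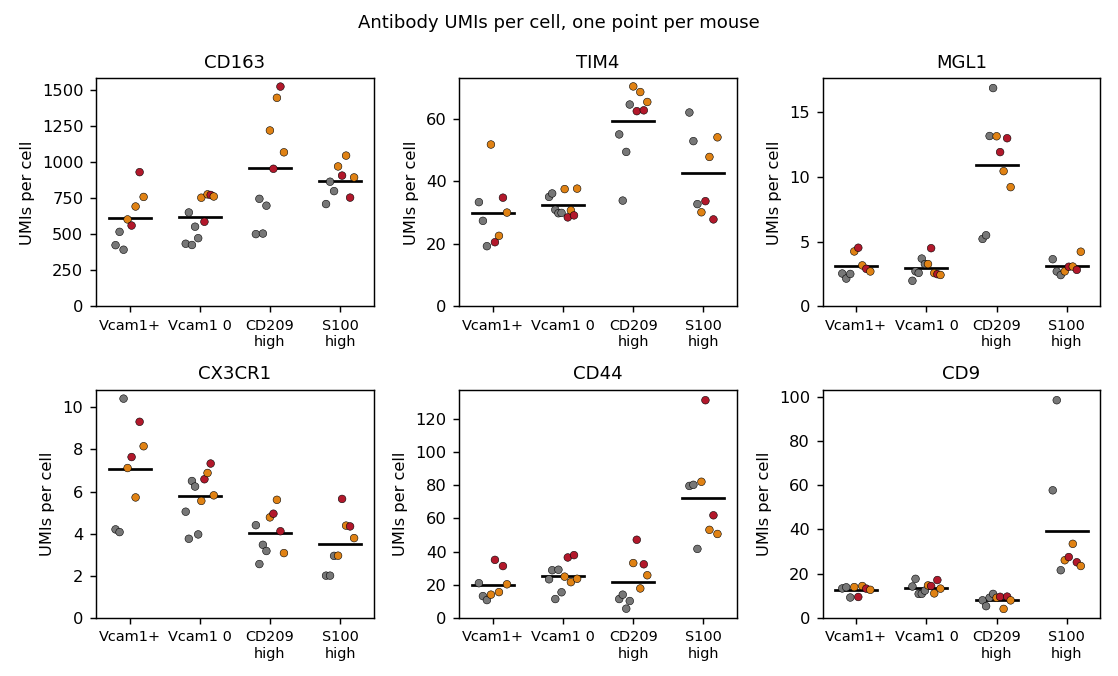
Antibody UMIs per cell (vertical axis, each from 0), 1 point per mouse with at least 10 cells, colored gray for Jak2WT, orange for dilation and red for aneurysm, with the mean as a bar, in Vcam1+, Vcam1-zero, CD209-high and S100-high Lyve1-type macrophages. MGL1 and CD163 are highest in CD209-high cells and CD44 and CD9 in S100-high cells, while Vcam1+ and Vcam1-zero cells lie together.

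The second question is whether the mutation changed the transcripts of Vcam1+ cells. Sums of at least 10 cells left 3 Jak2WT mice (1 to 3) and 5 Jak2V617F mice, with 112115 to 576977 UMIs per sum. Of 3855 genes tested by edgeR's quasi-likelihood test, 2 passed an adjusted p of 0.05 (0.0519%), Gm14636, which rose, and Sesn1, which fell, and 266 had an unadjusted p under 0.05. Jak2 itself held 81 UMIs in these cells and did not pass the filter for low counts. Its level was 33.5, 40.9 and 35.7 CPM in Jak2WT mice and 19.1, 24.1, 34.5, 48.5 and 15.1 CPM in Jak2V617F mice, and the groups overlapped. Counts of a gene do not tell the mutant transcript from the normal one.

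Gm14636 is a processed transcript without a known protein on the minus strand of the X chromosome, at chrX:19156981-19167241 of GRCm38, and Mir222 lies 10009 bases beyond its 3′ end on the same strand. It held 11.2, 0 and 8.92 CPM in Jak2WT mice 1 to 3 and 134, 133, 104, 98.8 and 73.6 CPM in Jak2V617F mice 6 to 10. The genotypes did not overlap, and the log2 fold change was 3.80 ± 0.53 (SE, edgeR adjusted p = 0.0119). The 200 UMIs were spread over 45 cells, with at most 18 in a cell. In Vcam1-zero cells it held 83.3, 66.7, 19.2, 49.7 and 43.1 CPM in Jak2WT and 149, 140, 30.4, 105 and 109 CPM in Jak2V617F mice, and the groups overlapped through mouse 8. Mice 4 and 5, left out of the fit for few Vcam1+ cells, held 41.4 and 0 CPM.

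Sesn1 encodes sestrin 1, a p53 and FOXO target that restrains mTORC1 when amino acids are scarce, at chr10:41809935-41908424 on the plus strand. It held 140, 98.0 and 89.2 CPM in Jak2WT mice 1 to 3 and 33.4, 24.1, 27.6, 29.5 and 19.5 CPM in Jak2V617F mice. The groups did not overlap, with a log2 fold change of -2.08 ± 0.29 (SE, edgeR adjusted p = 0.0119), over 101 UMIs in 65 cells. Mice 4 and 5 held 10.4 and 69.6 CPM, and with all 10 mice in the fit Sesn1 no longer passed, while Gm14636 still did. Without mouse 1 or without mouse 3 neither gene passed. In Vcam1-zero cells Sesn1 stood at 61.0 ± 12.2 CPM in 5 Jak2WT and 41.4 ± 7.86 CPM in 5 Jak2V617F mice, and the groups overlapped through mouse 4.

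No other gene of the fixed lists was called between genotypes. Of 32 immediate-early genes tested, 3 had an unadjusted p under 0.05 and were higher. Of all 3844 genes tested outside the rule, 134 were higher and 130 lower at that level. The median log2 fold change of the immediate-early genes was 0.07, beside 0.01 over all genes. Of 20 chemokine and cytokine genes 2 were higher at that level (median 0.43), of 12 heat-shock genes 4 were higher and 1 lower (median 0.27), of 11 NF-kappaB feedback genes 1 was higher (median 0.08) and of 16 JAK-STAT genes 1 was lower (median 0.01). Jdp2, a partner of JUN in the AP-1 complex, did not pass (log2 fold change 1.39 ± 0.29, edgeR adjusted p = 0.265) and is named after its values were seen. With only cells of at least 2 Vcam1 UMIs in the sums, Jdp2 passed and Gm14636 did not. Jdp2 held 123, 65.4 and 53.5 CPM in Jak2WT mice 1 to 3 and 319.9, 196, 218, 201 and 199 CPM in Jak2V617F mice 6 to 10, without overlap. It did not overlap in Vcam1-zero cells either, where it stood at 88.2 ± 46.0 and 207 ± 33.9 CPM.

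**Figure D5:**
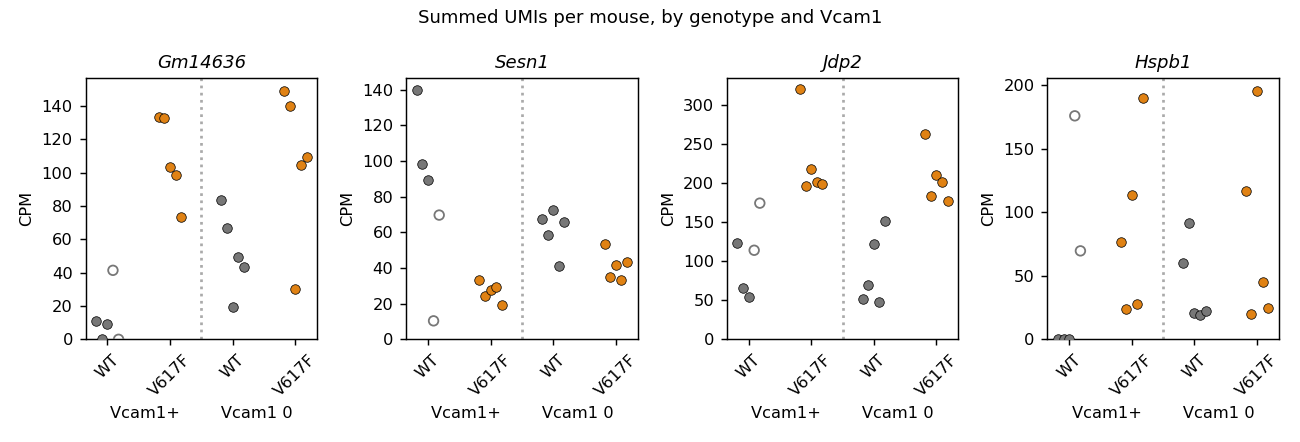
CPM per mouse (vertical axis, from 0) of Gm14636, Sesn1, Jdp2 and Hspb1 in Vcam1+ and Vcam1-zero cells of 5 Jak2WT (gray) and 5 Jak2V617F mice (orange); open circles are mice 4 and 5, with fewer than 10 Vcam1+ cells. Filled points do not overlap between genotypes for any of the 4 genes in Vcam1+ cells. In Vcam1-zero cells, with all 10 mice counted, Jdp2 does not overlap and the other 3 genes do.

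In the 917 Vcam1-zero cells, whose larger sums gave 10 mice, 13 of 6993 genes passed (0.186%). They come from the same mice as the Vcam1+ cells. Sqstm1, the autophagy receptor p62, had a log2 fold change of 0.81 ± 0.11 (SE, edgeR adjusted p = 0.0153) in Vcam1-zero and 1.05 ± 0.33 (edgeR adjusted p = 0.569) in Vcam1+ cells. Gpr183, a receptor for oxysterols, had -0.99 ± 0.19 (edgeR adjusted p = 0.0459) and -1.01 ± 0.23 (edgeR adjusted p = 0.265), and Tnf had 0.84 ± 0.15 (edgeR adjusted p = 0.0378) and 0.53 ± 0.42 (edgeR adjusted p = 0.831). The test of the difference itself, an interaction of genotype and kind of cell with the mouse as a block, called none of 8033 genes (0%) by edgeR, with 453 at an unadjusted p under 0.05, and none by DESeq2. A genotype effect particular to Vcam1+ cells was not shown for any gene at this depth.

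By severity, 1 of 4349 genes (0.023%) passed between aneurysm and dilation. S100a8, a calcium-binding protein of neutrophils and monocytes, held 1239 and 357 CPM in aneurysm mice 7 and 9 and 0, 3.45 and 6.49 CPM in dilation mice 6, 8 and 10 (log2 fold change 7.46 ± 0.68, SE, edgeR adjusted p = 2.58e-04). Of its 624 UMIs, 98.2% came from 3 cells, 1 of mouse 7 with 411 and 2 of mouse 9 with 150 and 52. Without the cells that held 10 or more UMIs of another lineage, no gene passed by edgeR and 171 had an unadjusted p under 0.05. S100a8 is itself on the neutrophil list by which those cells were left out, so the loss of its call follows from the choice. In Vcam1-zero cells S100a8 was highest in a Jak2WT mouse, at 261 CPM in mouse 2.

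Between dilation and Jak2WT, 2 of 4349 genes (0.046%) passed, Gm14636 (log2 fold change 3.72 ± 0.58, SE, edgeR adjusted p = 0.0471) and Hspb1, the small heat-shock protein HSP25. Hspb1 held 76.4, 114 and 190 CPM in mice 6, 8 and 10 and no UMI in Jak2WT mice 1 to 3, so that its pooled level was at least 19.6-fold higher, taking 3 counts over the Jak2WT sums as the floor (edgeR adjusted p = 0.0471). Mice 4 and 5, which are also Jak2WT, held 176 and 69.6 CPM. The 182 UMIs of Hspb1 came from 15 cells, and with all 10 mice in the fit neither gene passed. With any 1 mouse left out, at most 1 gene passed, which was Hspb1 without mouse 6.

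No surface antibody of Vcam1+ cells passed between genotypes. Of 54 tested (0%), 4 had an unadjusted p under 0.05 by edgeR, and DESeq2 called CD24. All 4 were lower in Jak2V617F mice after the scaling of the fit. CD24, a sialoglycoprotein of many leukocytes, held 461, 13.3 and 230.5 UMIs per cell in Jak2WT mice 1 to 3 and 57.0, 48.5, 44.0, 99.4 and 51.8 in Jak2V617F mice 6 to 10 (edgeR adjusted p = 0.305). The Jak2WT mice lay on both sides of the Jak2V617F mice. The other 3 were CD55, CD39 and Sirpa, with log2 fold changes of -1.20 ± 0.43, -0.49 ± 0.22 and -0.35 ± 0.16 (SE). CD39 held 190, 192 and 187 UMIs per cell in Jak2WT mice 1 to 3 and 194, 230, 145, 201 and 218 in Jak2V617F mice 6 to 10. Sirpa held 25.9, 22.3 and 26.9, and 24.9, 29.1, 25.4, 30.6 and 31.5. For CD39 and Sirpa the genotypes overlapped in UMIs per cell, without the fall seen on the scale of the fit.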

How the data were processed

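The authors deposited 1 matrix of UMI counts per barcode, made with Cell Ranger on mm10, without normalization, for 32285 genes, 75 antibodies and 10 hashtags (88874934 gene UMIs in all). The submitters' processing notes also list Seurat 3.0.0. Barcodes were kept here when the top hashtag count was at least 3 times the second (1275 were not), mitochondrial UMIs were at most 10% and gene UMIs at least 3000. Doublets within a mouse were not called. The cells, gene lists and named genes were chosen with earlier results of these data known. UMIs were summed per mouse (at least 10 cells) and tested by edgeR 4.0.16 (quasi-likelihood F test, filterByExpr, TMM, Benjamini-Hochberg over all features tested, two-sided, threshold 0.05) in R 4.3.3, with DESeq2 1.42.0 as an alternative. Shares and the Vcam1 level were compared over mice by two-sided exact permutation tests. Descriptive log2 ratios used CPM with a pseudocount of 5. Scripts were tested on simulated data. Named genes were those called with groups that did not overlap, called list members, the markers, Jak2, and the 10 highest and lowest ratios of genes with at least 50 CPM that went the same way in every mouse. A gene that met this rule is not reported here. Jdp2, Axl, Retnla, list members that moved in 7 of 8 mice and the genes called in Vcam1-zero cells were named after their values were seen. Positions are from GENCODE vM21. The sums used 2437351 gene and 389457 antibody UMIs. Vcam1+ cells against other cells of the same mice were fitted with the mouse as a block, since each pair is 1 animal.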

Additional observations from a re-analysis of the deposited data

Results flagged for a closer look

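Of 17 groups of 5 mice examined, 2 held a value far from the other 4 by Dixon's test at the 95% level, where about 1 in 20 is reached by chance. Jdp2 in Vcam1+ cells of Jak2V617F mice was 319.9 CPM in mouse 6, the highest, against 196 to 218 CPM in the other 4. S100a8 was 1239 CPM in mouse 7 and 357 CPM in mouse 9, and the 411 UMIs of mouse 7 all lay in 1 cell.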

How the results depend on the processing

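Of 69 results under other settings, 49 kept their direction and side of an unadjusted p of 0.05 (shares and levels) or a count within 1.5 times (calls, whichever the genes), as did 56 of 78 with a mouse left out. As a share of all Lyve1-type cells the genotype difference was 4.02 points (exact permutation p = 0.0556). The difference of aneurysm from the 8 others, 4.31 points, was 0.89 after thinning, 2.29 with at least 2 Vcam1 UMIs and 2.23 as a share of all Lyve1-type cells, and passed under none of them. Without the filter on low counts 67 genes passed between genotypes, 122 between aneurysm and dilation, 94 between dilation and Jak2WT and 51 in the interaction, and with all 10 mice in the sums (added after seeing the data) 1 passed between genotypes and 0 between dilation and Jak2WT. With at least 2 Vcam1 UMIs the 2 genes called between genotypes were Jdp2 and Sesn1. Between aneurysm and dilation, 0 genes passed with a hashtag ratio of 5, 7 without cells holding 2 or more vessel-wall UMIs, 0 without cells holding other-lineage RNA (added after seeing the data), 2 with at least 2 Vcam1 UMIs and 5 by DESeq2. Between dilation and Jak2WT, 7 passed without cells holding vessel-wall UMIs (Jdp2, Gm14636 and Hspb1 among them), 1 with at least 2 Vcam1 UMIs (Jdp2), 0 without TMM and 1 by DESeq2. For antibodies, DESeq2 called 1 between genotypes and 2 between Vcam1+ and Vcam1-zero cells, where 2 passed without TMM and 1, ITGB7, without the mouse as replicate block. The causes were not tested.

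With each mouse left out in turn, the genotype difference in share was 6.76 to 9.84 points (exact permutation p = 0.00794 to 0.0317), the difference of aneurysm from the 8 others 2.94 to 5.57 points and the Vcam1 level difference 0.56 to 1.18 on the log2 scale. The last missed 0.05 without mouse 7, 8 or 10 (exact permutation p = 0.0556 to 0.0635). Genes called between genotypes numbered 0 to 4, with 0 without mouse 1 or 3 and 4 without mouse 2. Between aneurysm and dilation they numbered 1 to 9, with 9 without mouse 7 and 4 without mouse 8, and S100a8 was among them each time. Between dilation and Jak2WT they numbered 0 to 1. Antibodies called between genotypes numbered 0 to 2, with 2 without mouse 2, and between Vcam1+ and Vcam1-zero cells 0 to 1, with 1 without mouse 8 or 10. Interaction calls numbered 0 to 7, with 7 without mouse 10, 2 without mouse 2 and 1 without mouse 7.

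Sums of 12 to 39 Vcam1+ cells per mouse, with 3 Jak2WT mice, limit the fits, and cells with 1 Vcam1 UMI depend on depth.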
